A study of Mus musculus with 16 samples.

Results

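The bile acid synthesis and transport genes described here are 34 genes of the mouse liver, chosen by name from the deposited expression table, and all 34 were found among its 25719 genes. The rule used gene names and no measured values, although the members were chosen with earlier results of these data known. By role, 2 encode enzymes of the neutral synthesis pathway, 3 encode enzymes of the acidic and oxysterol pathway, 2 modify the sterol ring, 6 shorten the side chain or conjugate it, 6 take bile acids up, 5 act at the canalicular membrane, 4 export bile acids across the basolateral membrane, and 6 are regulators or receptors. A mean normalized count of at least 10 was required for a test, and 32 of the 34 members passed it in each comparison. The others, Slc51a and Gpbar1, had between 0 and 4 reads and between 0 and 3 reads per mouse.

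Hepatocytes make bile acids from cholesterol. In the neutral pathway Cyp7a1 sets the rate and Cyp8b1 directs the product to cholic acid, whereas Cyp27a1 and Cyp7b1 serve the acidic pathway, and the products are then conjugated and pumped into the bile canaliculus. Bile acids returning from the gut are taken up from portal blood, and the nuclear receptor FXR, encoded by Nr1h4, senses them and induces SHP, encoded by Nr0b2, which represses synthesis.

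RNA was sequenced from whole liver of 16 male mice, which were 8 to 12 weeks old when they were put on the diets. The groups were 4 C57BL6J wild-type (WT) mice on a normal chow diet (NCD), 5 WT mice on the steatosis-steatohepatitis diet (SSD), 4 Klrk1-/- mice on NCD and 3 Klrk1-/- mice on SSD, with feeding for 3 weeks. SSD supplied 40% of calories as animal fat and contained 22% fructose and 2% cholesterol. Klrk1 encodes NKG2D, an activating receptor of lymphocytes, so that the deletion is in every cell of the animal and not in hepatocytes alone, and the sources used here do not say whether the genotypes were littermates. Each library was 1 mouse, and differences between mice of a group include both biological and technical spread.

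Reads on genes numbered 19892025 to 28936707 a mouse, and the members took between 0.781% and 1.06% of them. Klrk1 lay between 20.1 and 71.1 normalized counts in WT mice and between 0.966 and 8.71 in Klrk1-/- mice, without overlap. The hepatocyte marker sum was 1794820 normalized counts or more in every mouse. Of 5 intestinal epithelium markers, Cdh17, Lct and Cdx2 were at 3 reads or fewer in every mouse, and Fabp2 was the only one tested. One library stood apart: mouse 1 of the WT SSD group differed from its group mates by a chi-square per gene between 69.4 and 95.6, whereas all other pairs within groups differed by 13.5 to 61.9. Results with and without it are given for several members, and not for every member whose value in it lay apart.

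On NCD, WT mice held the members at very different levels. Per kilobase of the deposited gene length, the highest mean was that of Scp2, the sterol carrier and thiolase of side chain cleavage, at 41999 normalized counts. Slc27a5 and Slc27a2, which activate bile acids and fatty acids with coenzyme A, followed at 16556 and 16535. Among the hydroxylases the order per kilobase was Cyp27a1 at 11705, Cyp8b1 at 5786, Cyp7b1 at 4311, Cyp7a1 at 1095 and Cyp39a1 at 128. The export pump Abcc4 was the lowest of the members tested, at 7.06. The deposited lengths are those of the authors, and this order depends on them.

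The first question was how the cholesterol-containing diet changed the pathway in WT mice. Of the 7 hydroxylases and ring-modifying enzymes 6 were called lower (17.6% of all genes) and Cyp39a1 was called higher (17.3%). The calls of Cyp7a1, Cyp8b1 and Hsd3b7 were lost under both other scalings given below, and that of Cyp27a1 under quantile normalization. The phospholipid transporter Abcb4 and the export pumps Abcc3 and Abcc4 rose, and the uptake carrier Slc10a1 fell. In this comparison 24 of the 32 members passed the test, 8 higher on SSD (of all 13091 genes tested, 17.3% were higher) and 16 lower (17.6% of all genes were lower). The members' median log2 fold change was -0.29, against -0.0015 over all genes tested. Without WT SSD mouse 1 the calls were 8 higher and 14 lower (16.9% and 17.4% of all genes). With every library scaled to the same total, the split was 9 higher and 6 lower (48.1% and 5.46% of all genes), so that 15 of 32 members were called against 53.6% of all genes. With quantile normalization it was 9 higher and 10 lower (15.5% and 15.9% of all genes). The former scaling moved the all-gene median to 0.34 on the log2 scale.

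Cyp7a1, the rate-limiting enzyme of the neutral pathway (ENSMUSG00000028240, minus strand of chr4:6265612-6275633 on GRCm39), varied most between the WT NCD mice, relative to its mean, of all synthesis and conjugation genes. Its normalized counts were 1479.7, 4200.5, 2982 and 978 in the WT NCD mice and 1251, 665, 1118, 1073 and 1106 in the WT SSD mice. One NCD mouse lay within the SSD range, and the others lay above it. The mean was 2.31-fold lower on SSD (log2 fold change -1.02 ± 0.35, SE, limma adjusted p = 0.0416), and the groups gave an exact permutation p of 0.0556. This call was lost without WT NCD mouse 2 or 3 (adjusted p = 0.12 and 0.12), without WT SSD mouse 2, 3, 4 or 5 (0.0526 to 0.0892) and with equal totals (0.138) or quantile normalization (0.063). It was also lost with a replicate block on the mouse numbers (0.0947).

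Cyp8b1, the sterol 12-alpha-hydroxylase (ENSMUSG00000050445, minus strand of chr9:121743422-121745371), fell by 0.91 ± 0.30 (SE) on the log2 scale in WT mice (limma adjusted p = 0.0326, exact permutation p = 0.00794). Its normalized counts were 10462, 15652, 11082 and 7933 on NCD and 2560.1, 7058, 7195, 6950.3 and 7406 on SSD. The groups did not overlap, and SSD mouse 1 was far below its group mates. Without that mouse the log2 fold change was -0.62 (adjusted p = 0.0109). The call was lost without WT NCD mouse 1, 2 or 3 (adjusted p = 0.069 to 0.0974) and with equal totals (0.107) or quantile normalization (0.134).

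In the acidic pathway, Cyp27a1 and Cyp7b1 were lower on SSD, and the oxysterol enzyme Cyp39a1 was higher. Cyp27a1, the mitochondrial sterol 27-hydroxylase (ENSMUSG00000026170, plus strand of chr1:74752733-74777051), had 12099.5, 14316, 14423 and 10991 normalized counts on NCD and 5864, 7921, 9252, 9102 and 8482 on SSD in WT mice. Every SSD mouse was below every NCD mouse, and the log2 fold change was -0.68 ± 0.14 (SE, limma adjusted p = 0.00356, exact permutation p = 0.00794). With quantile normalization it was -0.32 (adjusted p = 0.0624).

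Cyp7b1, the oxysterol 7-alpha-hydroxylase (ENSMUSG00000039519, minus strand of chr3:18126114-18297502), showed the largest fall of the members in WT mice. It had 10611, 8534, 9152 and 9051 normalized counts on NCD and 980.5, 1694, 2603, 2213 and 2727 on SSD. The SSD values were all below the NCD values, with SSD mouse 1 lowest. The mean was 4.57-fold lower, with a log2 fold change of -2.28 ± 0.25 (SE, limma adjusted p = 4.28e-05, exact permutation p = 0.00794), and -2.03 without that mouse.

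Cyp39a1, which hydroxylates 24-hydroxycholesterol (ENSMUSG00000023963, plus strand of chr17:43978316-44062322), went the other way. Its WT values were 303, 313, 235 and 189.8 normalized counts on NCD and 1311, 1283, 1277, 1134 and 1650.1 on SSD. The groups were far apart, and the mean was 5.12-fold higher on SSD (log2 fold change 2.37 ± 0.15, SE, limma adjusted p = 6.59e-07, exact permutation p = 0.00794).

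**Figure D1:**
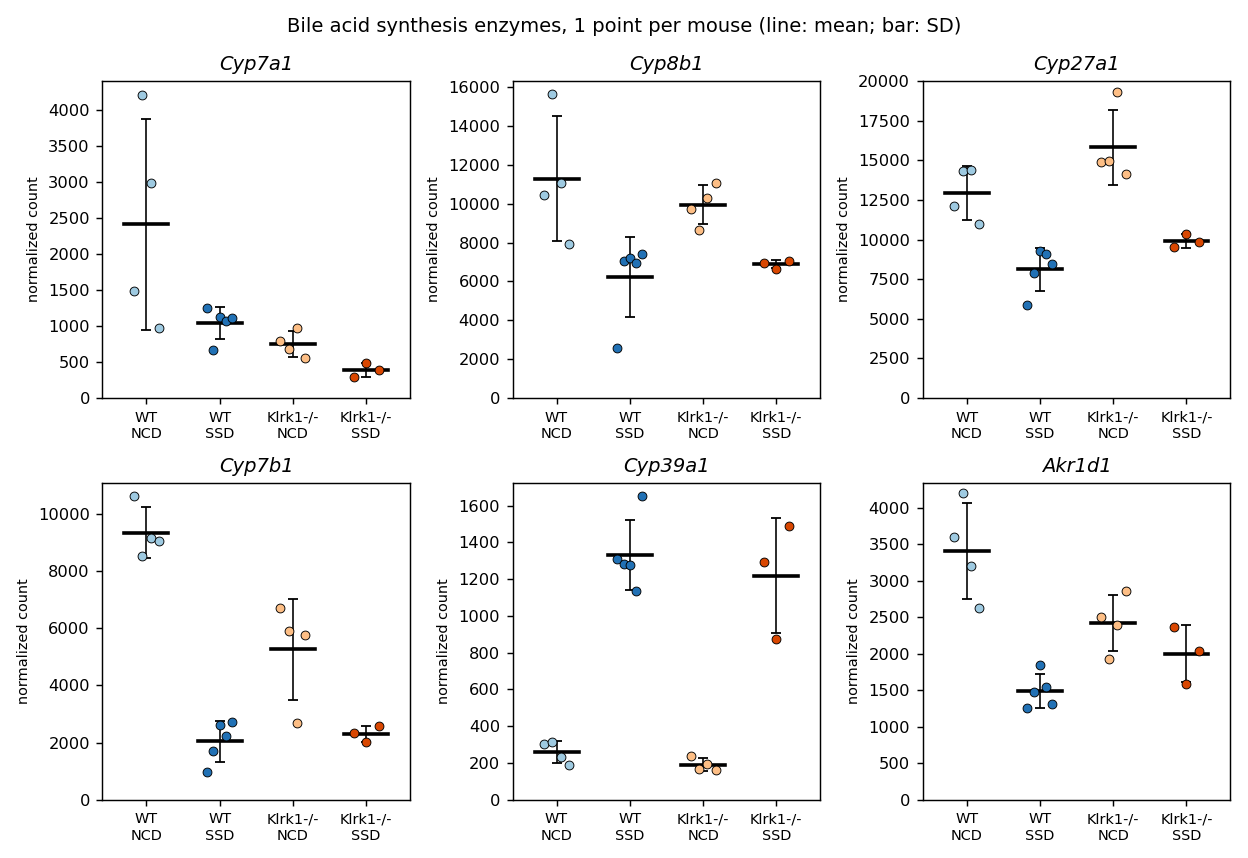
Normalized counts of 6 synthesis enzymes (vertical axes, from 0) in the 4 groups, 1 point per mouse with the mean as a line and the SD as a bar. Cyp39a1 was the only enzyme of the 6 that was higher on SSD in both genotypes, and Cyp7a1 was below every WT mouse of the same diet in all Klrk1-/- mice.

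The 2 ring-modifying enzymes also fell in WT mice. Akr1d1, the 5-beta-reductase, went from 3407 ± 659 (SD, n = 4) to 1487 ± 229.6 (SD, n = 5) normalized counts, a log2 fold change of -1.19 ± 0.14 (SE, limma adjusted p = 8.69e-05). Hsd3b7, the 3-beta-hydroxysteroid dehydrogenase, changed by -0.29 ± 0.10 (SE, adjusted p = 0.0404), a call that was lost without any of 8 mice taken one at a time and had the opposite sign with equal totals (0.06) and quantile normalization (0.12). It was also lost with a replicate block (adjusted p = 0.117). The annotation places a further protein-coding gene, Gm49388, on the same strand over Hsd3b7. Gm49388 had a mean of 15247 normalized counts over all mice, and Hsd3b7 had group means from 12527 to 17438. The assignment of reads between the 2 genes is uncertain.

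Of the 6 side chain and conjugation genes, 3 were lower (17.6% of all genes), 1 was higher (17.3%) and 2 did not pass the test. Slc27a5, the ligase that returns bile acids to conjugation, fell by 1.02 ± 0.18 (SE) and Baat, which joins them to taurine or glycine, by 0.56 ± 0.12 (SE) on the log2 scale (limma adjusted p = 0.00149 and 0.00458). The racemase Amacr fell by 0.40 ± 0.08 (SE, adjusted p = 0.00251). The acyl-CoA synthetase Slc27a2 rose by 0.50 ± 0.11 (SE, adjusted p = 0.00469), a call that was lost with a replicate block (0.0508). The oxidase Acox2 and Scp2 had log2 fold changes of 0.18 and -0.17 (adjusted p = 0.154 and 0.316). Acox2 was called higher with equal totals (0.53, adjusted p = 0.00119) and quantile normalization (0.48, 0.00392), and Scp2 turned to 0.36 and was called higher with quantile normalization (adjusted p = 0.0272).

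Among the uptake transporters, 3 of 6 were lower in WT mice (17.6% of all genes). Slc10a1, which encodes NTCP, the main sodium-dependent carrier from portal blood (ENSMUSG00000021135, minus strand of chr12:80999957-81015479), had 13599.8, 16776, 12726 and 11098 normalized counts on NCD and 4428, 8051, 9384, 7335 and 8695 on SSD. The groups did not overlap, and SSD mouse 1 was the lowest of all 16 mice. The log2 fold change was -0.87 ± 0.20 (SE, limma adjusted p = 0.0061, exact permutation p = 0.00794), and -0.69 without that mouse. Slc10a2, which encodes the apical carrier ASBT of ileum and bile duct, and the organic anion carrier Slco2b1 fell by 0.56 ± 0.14 and 0.70 ± 0.09 (SE, adjusted p = 0.0095 and 2.22e-04). Slco1a1, Slco1a4 and Slco1b2, further organic anion carriers, had log2 fold changes between -0.77 and 0.11 that did not pass (adjusted p = 0.0664 for Slco1a1). Slco1a1 was called lower in 1 model of all 4 groups, which share an estimate of the spread (adjusted p = 0.0221), and without WT SSD mouse 5 (0.0226). Slco1a4 had 1 far higher mouse, SSD mouse 1, and without it the log2 fold change turned from 0.11 (adjusted p = 0.71) to -0.10 (0.513).

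At the canalicular membrane 3 of 5 members were higher and 2 lower (17.3% and 17.6% of all genes). Abcb11, which encodes the bile salt export pump (ENSMUSG00000027048, minus strand of chr2:69068626-69172960), had 15831, 15563, 16043 and 13709 normalized counts on NCD and 10854, 11709.7, 12539, 13609 and 13623 on SSD in WT mice. The groups were close but did not overlap, the highest SSD mouse lying just under the lowest NCD mouse. The log2 fold change was -0.30 ± 0.10 (SE, limma adjusted p = 0.0389, exact permutation p = 0.0238). It was 0.049 with equal totals and 0.107 with quantile normalization, so its sign depended on the scaling, and its call was lost without WT NCD mouse 1, 2 or 3 or WT SSD mouse 1, 2 or 3 (adjusted p = 0.0579 to 0.104). The call was also lost with a replicate block (0.112).

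Abcb4, the floppase that moves phosphatidylcholine into bile (ENSMUSG00000042476, plus strand of chr5:8943717-9009231), was higher in every SSD mouse. Its WT values were 3704, 4266, 3755 and 3595 normalized counts on NCD and 9683, 7998, 8424, 8837 and 9172 on SSD. The ranges were far apart, with a 2.30-fold higher mean and a log2 fold change of 1.20 ± 0.09 (SE, limma adjusted p = 1.95e-06, exact permutation p = 0.00794). Abcb4 lies over Crot on the opposite strand, and the sources used here do not say whether counting used strand. Crot had a mean of 15510 normalized counts over all mice, above Abcb4 itself, and its part in the result was not tested.

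Abcb1a, the drug efflux pump MDR1A, was low and variable. It had 16.9, 43.3, 22.2 and 24.3 normalized counts on NCD and 129.5, 38.0, 66.6, 54.2 and 43.3 on SSD in WT mice. The groups overlapped through NCD mouse 2, and SSD mouse 1 was the highest of all. The log2 fold change was 1.22 ± 0.36 (SE, limma adjusted p = 0.0204, exact permutation p = 0.0397) and 0.95 without that mouse (adjusted p = 0.0237), and the call was lost without WT NCD mouse 1 (0.0675) or 3 (0.052) and with quantile normalization (0.0541) or a replicate block (0.077). Its sequence is close to that of Abcb1b, so the assignment of reads between them is uncertain. The conjugate pump Abcc2 rose by 0.43 ± 0.11 (SE, adjusted p = 0.00939), and the phospholipid flippase Atp8b1 fell by 0.45 ± 0.09 (SE, adjusted p = 0.00279). With a replicate block the call of Abcc2 was lost (adjusted p = 0.0511).

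Basolateral export pumps were higher on SSD. Abcc4, which encodes MRP4 (ENSMUSG00000032849, minus strand of chr14:118720104-118943631), had 25.3, 31.2, 14.3 and 26.5 normalized counts on NCD and 285, 122, 109, 96.8 and 91.4 on SSD in WT mice. Every SSD mouse was above every NCD mouse, and SSD mouse 1 was far above the rest. The mean was 5.79-fold higher, with a log2 fold change of 2.39 ± 0.33 (SE, limma adjusted p = 2.30e-04, exact permutation p = 0.00794), and 2.11 without that mouse. Abcc3, which encodes MRP3, rose by 0.79 ± 0.13 (SE, adjusted p = 7.36e-04). Slc51b, a subunit of the organic solute transporter, had between 8 and 87 reads per mouse and a log2 fold change of 0.34 ± 0.50 (SE) that did not pass (adjusted p = 0.629). Without SSD mouse 1, again the highest of its group, it was -0.02 (adjusted p = 0.977).

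**Figure D2:**
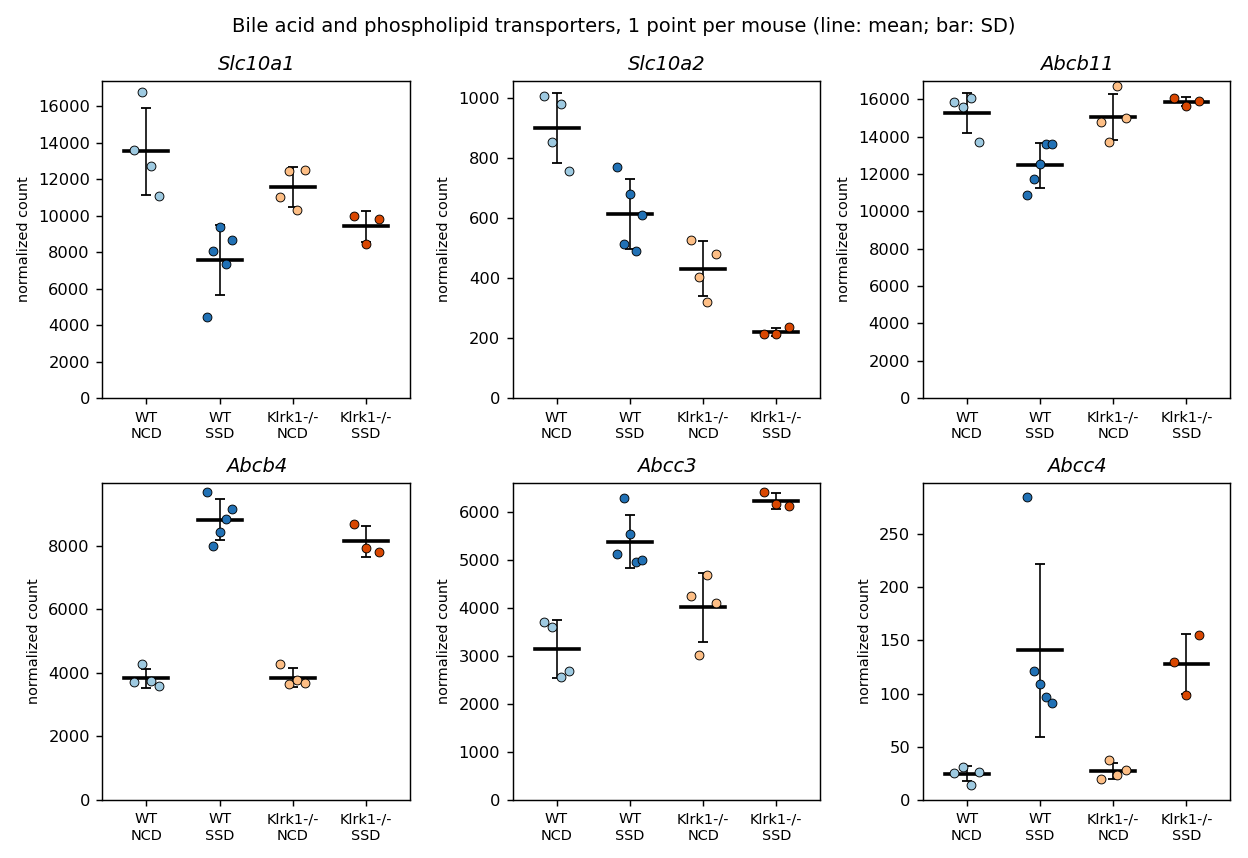
Normalized counts of 6 transporters (vertical axes, from 0) in the 4 groups, 1 point per mouse with the mean as a line and the SD as a bar. Abcb4, Abcc3 and Abcc4 were higher on SSD without overlap in both genotypes, and Slc10a2 was lower in Klrk1-/- mice than in WT mice on either diet.

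Of 5 regulators tested in WT mice 1 was higher and 2 were lower (17.3% and 17.6% of all genes). Nr0b2, which encodes the repressor SHP (ENSMUSG00000037583, plus strand of chr4:133280687-133283847), had 668, 619, 515 and 802 normalized counts on NCD and 1228, 2097, 1777, 1191 and 1246 on SSD. Every SSD mouse was above every NCD mouse. The mean was 2.32-fold higher, with a log2 fold change of 1.19 ± 0.18 (SE, limma adjusted p = 4.92e-04, exact permutation p = 0.00794).

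Nr1h4, which encodes the bile acid receptor FXR (ENSMUSG00000047638, minus strand of chr10:89290096-89369447), had 3202, 3622, 3591 and 2744 normalized counts on NCD and 2172, 2441, 2436, 2605 and 2333 on SSD in WT mice. The groups did not overlap, and the log2 fold change was -0.45 ± 0.10 (SE, limma adjusted p = 0.00449, exact permutation p = 0.00794), against -0.10 with equal totals (adjusted p = 0.392). Nr5a2, which encodes LRH-1, an activator of bile acid genes, fell by 0.57 ± 0.10 (SE, adjusted p = 9.61e-04). With equal totals the WT calls of Nr5a2, Baat, Amacr, Slc10a2 and Atp8b1 were lost as well (adjusted p = 0.0761 to 0.539), that of Baat also with quantile normalization (0.0738). Fgfr4 and its co-receptor Klb, through which the gut hormone FGF15 acts on hepatocytes, had log2 fold changes of -0.08 and -0.05 that did not pass (adjusted p = 0.64 and 0.836). Klb overlaps Rpl9, which lies on the opposite strand and had a mean of 3252 normalized counts over all mice.

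Marker genes of other cells moved with the diet too, where 17.3% of all genes were called higher and 17.6% lower in WT mice. In WT mice the summed normalized counts of 8 Kupffer cell and macrophage markers ranged from 4605 to 4869.8 on NCD and from 6621 to 13967 on SSD, with 5 of 8 called higher, and those of 7 hepatocyte markers ranged from 2576270 to 2909440 and from 1794820 to 2114880, with 3 of 7 called lower. For 8 periportal hepatocyte markers, of which 6 were called lower, the sums ranged from 231782 to 269840 and from 112254 to 170022. Without WT SSD mouse 1 the highest macrophage sum on SSD was 11819 and 3 of 8 macrophage markers were called higher, while 4 of 7 hepatocyte and 6 of 8 periportal markers were called lower. Of the other lists, 4 of 8 pericentral hepatocyte markers and 1 of 6 cholangiocyte markers tested were called lower, and 6 of 7 sinusoidal endothelial and 3 of 7 stellate cell markers higher. The intestinal marker sums, nearly all of them Fabp2, ranged from 1116 to 1844 on NCD and from 3789 to 4252 on SSD, and Fabp2 was called higher by 1.56 on the log2 scale (limma adjusted p = 4.84e-06). In whole liver, fewer cells of a type and less RNA per cell cannot be told apart, and the part of these shifts in the results was not tested.

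Klrk1-/- mice were compared on the same diets, without any mouse in common with the WT comparison. Of 32 members, 17 passed the test, 8 higher on SSD (13.4% of the 12904 genes tested were higher) and 9 lower (16% of all genes were lower), and the members' median log2 fold change was -0.04, against -0.002 over all genes. With equal totals the split was 14 higher and 6 lower (37.5% and 6.24% of all genes), and with quantile normalization 12 higher and 7 lower (14.6% and 14% of all genes). With both of these scalings Slco1b2, Abcb11, Abcc2 and Scp2, which had not passed, were called higher (adjusted p = 0.00278 to 0.0417), as were Atp8b1 and Nr5a2 with equal totals (0.0409 and 0.0106). One model of all 4 groups called 7 members higher and 4 lower (10.7% and 13.2% of all genes), and the calls of Cyp7a1, Cyp8b1, Slc27a5, Slc10a1, Slco1a1 and Klb were lost in it (adjusted p = 0.067 to 0.287). In both genotypes 8 members were called lower and 6 higher, 10 were called in WT mice only, 3 in Klrk1-/- mice only and 5 in neither. Over the 12767 genes tested in both, 10.1% were called lower in both, 7.69% higher in both, 16.8% in WT mice only, 11.6% in Klrk1-/- mice only and 53.6% in neither. The signs of the log2 fold change were alike for 24 of the 32 members and for 73.9% of all genes.

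The largest changes in Klrk1-/- mice were those of Cyp39a1 and Abcc4. Cyp39a1 had 240.1, 167, 196 and 162 normalized counts on NCD and 1296, 875 and 1488 on SSD. The lowest SSD mouse was several times above the highest NCD mouse, and the mean was 6.37-fold higher (log2 fold change 2.65 ± 0.18, SE, limma adjusted p = 1.25e-06). Abcc4 had 19.5, 37.3, 23.6 and 28.3 on NCD and 129, 98.8 and 155 on SSD. Its mean was 4.70-fold higher without overlap (log2 fold change 2.21 ± 0.24, SE, adjusted p = 4.80e-05).

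Abcb4 and Abcb1a also rose without overlap in Klrk1-/- mice. Abcb4 had 4292, 3661, 3759 and 3672 normalized counts on NCD and 8696, 7926 and 7808 on SSD, a 2.12-fold higher mean (log2 fold change 1.08 ± 0.08, SE, limma adjusted p = 3.89e-06). Abcb1a had 20.7, 29.9, 16.2 and 25.8 and 57.9, 48.2 and 55.7, a 2.33-fold higher mean (log2 fold change 1.22 ± 0.24, SE, adjusted p = 0.00321). On either diet Abcb4 varied little between the mice, and Abcb1a varied more on NCD. The exact permutation p was 0.0286 for each of Cyp39a1, Abcc4, Abcb4 and Abcb1a, the smallest that 3 against 4 mice allow.

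Of the 7 hydroxylases and ring-modifying enzymes 4 were lower on SSD in Klrk1-/- mice (16% of all genes), Cyp39a1 was higher (13.4%), and Akr1d1 and Hsd3b7 did not pass (-0.28 and -0.14 on the log2 scale, limma adjusted p = 0.169 and 0.284). Cyp7b1 had 6692, 5899, 2679 and 5764 normalized counts on NCD and 2338, 2021 and 2565 on SSD in Klrk1-/- mice. NCD mouse 3 lay just above the SSD range and the other NCD mice far above it, with a log2 fold change of -1.11 ± 0.25 (SE, limma adjusted p = 0.00633, exact permutation p = 0.0571). Cyp7a1 had 796, 678, 971 and 556 on NCD and 285, 489 and 395 on SSD. These groups did not overlap, and the log2 fold change was -0.95 ± 0.20 (SE, adjusted p = 0.00414, exact permutation p = 0.0286).

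Other members called lower in Klrk1-/- mice were Slc10a2 (-0.94 on the log2 scale), Cyp27a1 (-0.67), Slco1a1 (-0.64), Cyp8b1 (-0.52), Slco2b1 (-0.47), Slc27a5 (-0.30) and Slc10a1 (-0.30). The call of Slc27a5 was lost without Klrk1-/- NCD mouse 2 or 4 or SSD mouse 1 or 2 (limma adjusted p = 0.0541 to 0.100), and that of Slc10a1 without NCD mouse 1, 2 or 4 or any SSD mouse (0.0577 to 0.139). With equal totals both were lost, as was that of Slco2b1 (adjusted p = 0.725, 0.788 and 0.0524). The calls of Slc27a5 and Slc10a1 were also lost with quantile normalization (0.312 and 0.438) and a replicate block (0.0893 and 0.133). That of Slc10a1 was lost with edgeR as well (0.053). Other members called higher were Abcc3 (0.65), Slc27a2 (0.58), Klb (0.51) and Acox2 (0.33). The calls of Klb and Acox2 were lost when Klrk1-/- NCD mouse 1 or 2 or SSD mouse 1 or 3 was left out (Klb adjusted p = 0.0573 to 0.101, Acox2 adjusted p = 0.0529 to 0.147), and that of Acox2 also without NCD mouse 3 (0.0659).

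In Klrk1-/- mice 4 of 7 hepatocyte, 4 of 8 pericentral and 6 of 8 periportal markers were called lower on SSD, with 1 periportal marker higher, and 2 of 8 macrophage, 1 of 7 endothelial, 4 of 7 stellate cell and 1 of 6 cholangiocyte markers higher. The macrophage marker sums ranged from 3972 to 4827 normalized counts on NCD and from 4873 to 6252 on SSD, and the hepatocyte sums from 2480950 to 3225810 and from 2265880 to 2414270. Of all genes tested, 13.4% were called higher and 16% lower. Fabp2 of the intestinal list was called higher by 0.82 (limma adjusted p = 1.63e-04). The part of these in the results was not tested.

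**Figure D3:**
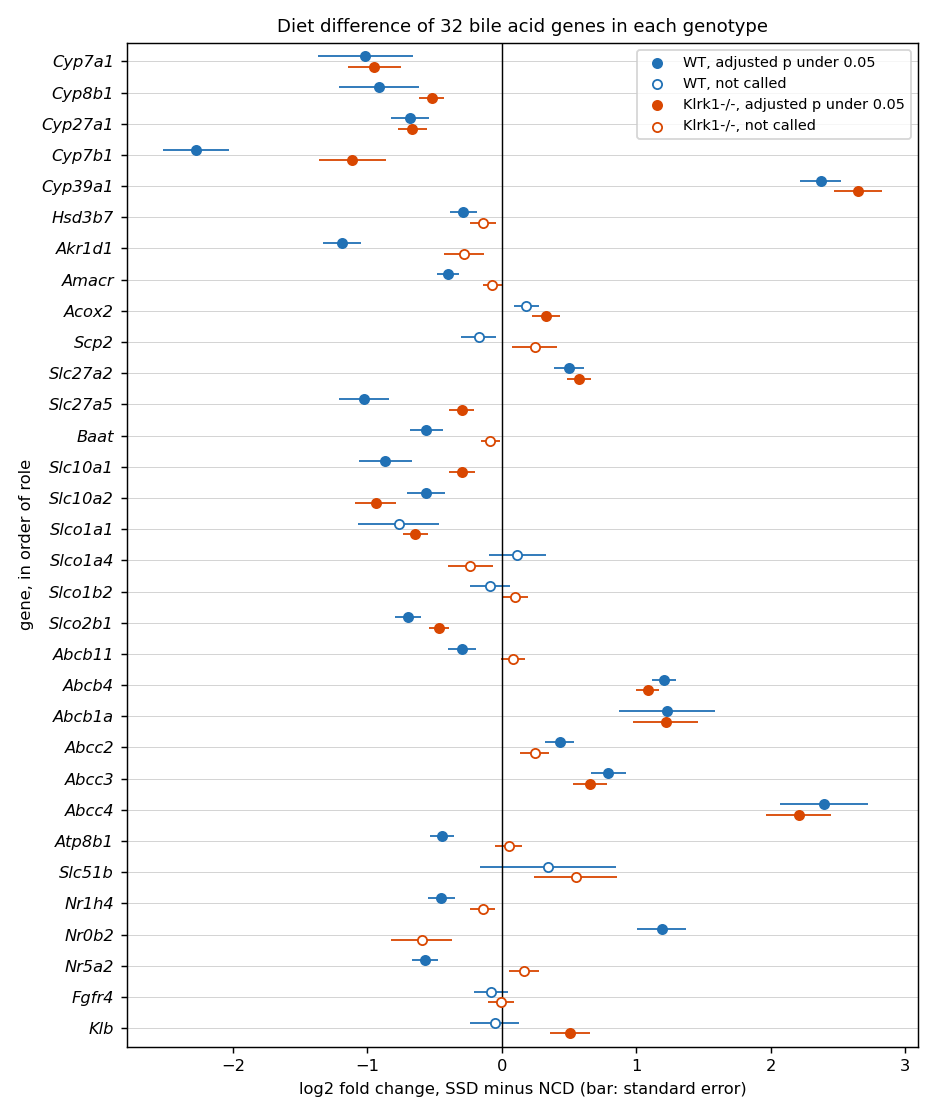
Log2 fold change of SSD against NCD (horizontal axis, bar: standard error) for the 32 members tested, in WT mice (blue) and Klrk1-/- mice (orange), with filled points at a limma adjusted p under 0.05. Most points of both genotypes lie on the same side of 0, and Nr0b2 is the member whose points lie farthest apart.

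Whether the diet acted differently in the 2 genotypes was tested by the interaction in all 16 mice. Of 32 members, 1 had a higher diet effect in Klrk1-/- mice (0.321% of the 13068 genes tested did) and 1 a lower one (0.559% of all genes did). They were the regulators Nr5a2 and Nr0b2. The members' median interaction was 0.20 on the log2 scale, against 0.0004 over all genes. At an unadjusted limma p under 0.05, 11 members were higher and 1 was lower (8.46% and 8.81% of all genes), edgeR called 1 higher and 1 lower (0.275% and 0.413%), and DESeq2 called 4 higher and 1 lower (1.42% and 2.10% of all genes).

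Nr0b2 had 3059, 2128, 2355 and 2518 normalized counts in Klrk1-/- mice on NCD and 2216, 1005 and 2013 on SSD. On NCD every Klrk1-/- mouse was above every WT mouse of either diet, and on SSD the genotypes overlapped. The diet effect was 1.19 ± 0.18 (SE) in WT mice and -0.60 ± 0.23 (SE) in Klrk1-/- mice, where it did not pass (limma adjusted p = 0.0664). Without Klrk1-/- SSD mouse 1 the latter was -0.81 and passed (adjusted p = 0.0328). The interaction was -1.78 ± 0.32 (SE, adjusted p = 0.0158) and stayed under 0.05 with every mouse left out in turn and under every other setting tried (adjusted p = 5.02e-05 to 0.0489).

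Nr5a2 had 1275, 1142, 1066 and 967 normalized counts in WT mice on NCD, 789.8, 752, 661, 743 and 786 in WT mice on SSD, 839, 697, 887 and 914 in Klrk1-/- mice on NCD and 919, 829.6 and 1052 in Klrk1-/- mice on SSD. WT SSD mice were below all WT NCD mice, whereas the Klrk1-/- groups overlapped. The interaction was 0.73 ± 0.15 (SE, limma adjusted p = 0.0281). It passed in 16 of 25 settings, and was lost without WT NCD mouse 1 or 2, WT SSD mouse 4, Klrk1-/- NCD mouse 1 or 2 or Klrk1-/- SSD mouse 1 or 3 (adjusted p = 0.0512 to 0.105), with equal totals (0.0593) and with a replicate block (0.0551).

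The largest interactions that did not pass were those of Cyp7b1 (1.16 ± 0.40, SE, limma adjusted p = 0.162) and Akr1d1 (0.91 ± 0.23, SE, adjusted p = 0.0666). Akr1d1 passed without WT NCD mouse 5, WT SSD mouse 3 or Klrk1-/- SSD mouse 2 (adjusted p = 0.0372 to 0.0489). DESeq2 on the recovered reads called Akr1d1, Amacr and Atp8b1 higher as well (interaction 0.92, 0.33 and 0.49, adjusted p = 0.00904, 0.0241 and 0.0216). A p above the threshold does not show that the genotypes responded alike.

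**Figure D4:**
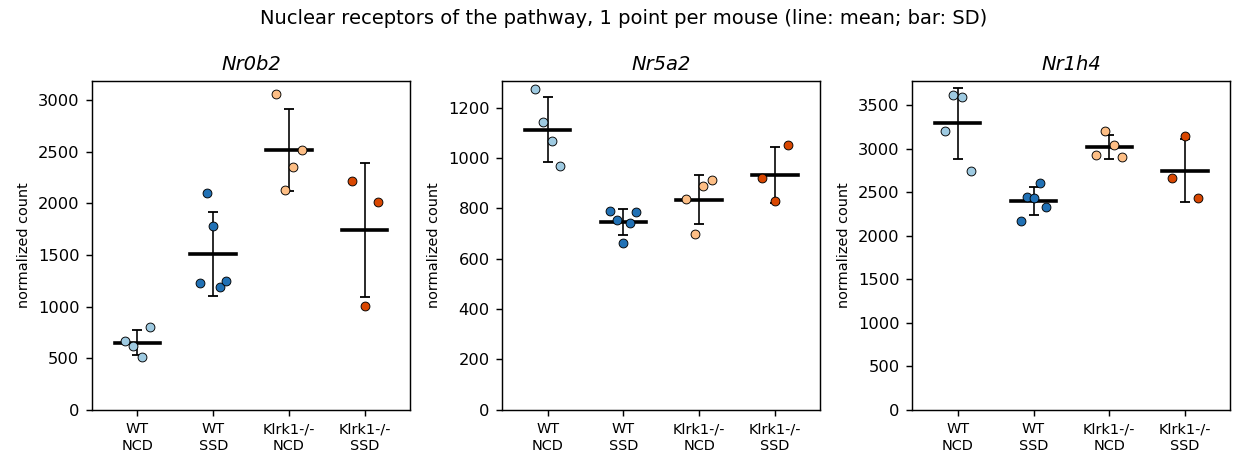
Normalized counts of the nuclear receptor genes Nr0b2, Nr5a2 and Nr1h4 (vertical axes, from 0) in the 4 groups, 1 point per mouse with the mean as a line and the SD as a bar. Nr0b2 was higher on SSD in WT mice, and in Klrk1-/- mice it was at 2128 to 3059 on NCD.

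The sequences before the start sites of 4 members are shown because the data bear on them: Nr0b2 and Nr5a2 were the members with an interaction, and Akr1d1 and Abcb11 were members called lower in WT mice that carry a match, the sign and the call of Abcb11 depending on the scaling. They were chosen after the values were seen. Each is the 250 bases before a RefSeq start site that coincides with the deposited gene start, written 5′ to 3′ on the gene's strand. The RefSeq table is on GRCm38.p6, and each sequence was found once, without a mismatch, in GRCm39, at the plus strand of chr4:133280437-133280686 for Nr0b2, the minus strand of chr1:136888187-136888436 for Nr5a2, the plus strand of chr6:37506858-37507107 for Akr1d1 and the minus strand of chr2:69172961-69173210 for Abcb11. Capitals mark matches, on either strand, to AGGTCA, the half-site of many nuclear receptors, or to TCAAGG, part of the longer site known for LRH-1.
Nr0b2: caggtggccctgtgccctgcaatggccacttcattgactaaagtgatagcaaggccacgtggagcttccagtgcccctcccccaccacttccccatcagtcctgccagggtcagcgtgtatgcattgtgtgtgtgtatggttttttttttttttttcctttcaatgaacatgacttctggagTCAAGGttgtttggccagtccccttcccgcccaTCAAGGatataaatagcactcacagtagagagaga
Nr5a2: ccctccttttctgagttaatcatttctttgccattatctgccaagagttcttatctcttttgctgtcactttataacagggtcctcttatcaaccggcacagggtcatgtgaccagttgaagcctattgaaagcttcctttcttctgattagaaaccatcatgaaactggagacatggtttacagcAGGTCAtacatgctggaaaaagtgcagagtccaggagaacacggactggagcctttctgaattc
Akr1d1: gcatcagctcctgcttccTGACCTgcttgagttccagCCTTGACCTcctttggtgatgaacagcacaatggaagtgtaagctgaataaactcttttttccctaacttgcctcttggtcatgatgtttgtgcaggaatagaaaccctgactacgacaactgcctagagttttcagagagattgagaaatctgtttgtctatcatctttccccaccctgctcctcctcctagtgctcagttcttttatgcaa
Abcb11: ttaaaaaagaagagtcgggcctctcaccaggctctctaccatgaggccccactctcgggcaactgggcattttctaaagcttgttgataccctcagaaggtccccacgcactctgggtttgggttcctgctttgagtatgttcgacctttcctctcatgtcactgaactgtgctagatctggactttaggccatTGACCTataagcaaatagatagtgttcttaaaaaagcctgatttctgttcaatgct

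Nr0b2 held TCAAGG 2 times on its own strand, beginning 68 and 35 bases before the start, and Nr5a2 held AGGTCA beginning 64 bases before it. Abcb11 held AGGTCA on the opposite strand, beginning 56 bases before the start. Akr1d1 held AGGTCA 2 times and TCAAGG 1 time, all on the opposite strand, and its TCAAGG overlaps 1 of the AGGTCA matches. RefSeq entries matched 26 of the 34 members, with 32 windows, of which 12 held AGGTCA and 4 held TCAAGG, against 14.0% and 12.5% of all 32851 windows of that length in the table. These matches describe the letters of the windows and do not show binding.

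On NCD the genotypes differed in 9 of 32 members, 2 higher in Klrk1-/- mice (6.41% of the 12845 genes tested were higher) and 7 lower (6.66% of all genes were lower). The members' median log2 fold change was -0.15, against 0.0018 over all genes. Nr0b2 showed the largest difference, with the values given above, a 3.86-fold higher mean in Klrk1-/- mice and a log2 fold change of 1.95 ± 0.14 (SE, limma adjusted p = 7.64e-06, exact permutation p = 0.0286). Of these 9 calls, those of Nr0b2, Cyp7a1, Slc10a2 and Atp8b1 passed in each refit that left out 1 mouse. In the same comparison 2 of 7 sinusoidal endothelial markers were higher, with all 7 above 0, and 2 of 8 periportal, 1 of 8 pericentral and 1 of 8 macrophage markers were lower, and their part in the results was not tested.

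Cyp7a1 was lower in Klrk1-/- mice on NCD, where the values of 796, 678, 971 and 556 normalized counts stood against 1479.7, 4200.5, 2982 and 978 in WT mice. The highest Klrk1-/- mouse lay just under the lowest WT mouse, and the WT mice spread widely. The mean was 3.21-fold lower, with a log2 fold change of -1.49 ± 0.35 (SE, limma adjusted p = 0.0185, exact permutation p = 0.0286).

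Slc10a2 (ENSMUSG00000023073, minus strand of chr8:5133219-5155351) had 1007, 854, 980.2 and 756 normalized counts in WT mice and 525, 402, 319.6 and 479.7 in Klrk1-/- mice on NCD. The genotypes did not overlap, and the mean was 2.08-fold lower in Klrk1-/- mice (log2 fold change -1.07 ± 0.15, SE, limma adjusted p = 0.00108, exact permutation p = 0.0286). Bile duct cells express this carrier, and the sums of 8 cholangiocyte markers ranged from 1539 to 3418 normalized counts in WT mice and from 1511 to 1750.4 in Klrk1-/- mice on NCD, with 1 of the 6 tested called lower by limma and a list median of -0.80 on the log2 scale. At an unadjusted limma p under 0.05, 4 of the 6 were lower (15.6% of all genes), and edgeR called 3 (6.86%) and DESeq2 2 (9.02%) of them lower. The part of this in the Slc10a2 result was not tested.

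Cyp7b1 was lower in Klrk1-/- mice on NCD, with 6692, 5899, 2679 and 5764 normalized counts against 10611, 8534, 9152 and 9051 in WT mice. The genotypes did not overlap, and the log2 fold change was -0.91 ± 0.22 (SE, limma adjusted p = 0.0219, exact permutation p = 0.0286), which was lost without WT NCD mouse 1 (0.0611). Atp8b1 had 984, 859.8, 971 and 839 in WT mice and 639, 658, 557 and 712 in Klrk1-/- mice. These did not overlap either, with a log2 fold change of -0.51 ± 0.10 (SE, adjusted p = 0.00806, exact permutation p = 0.0286).

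Slco1a4 was higher in Klrk1-/- mice on NCD, with 1809, 1134, 1996 and 1629 normalized counts against 1289, 1139, 915 and 1002 in WT mice. The genotypes overlapped through Klrk1-/- mouse 2. The log2 fold change was 0.58 ± 0.16 (SE, limma adjusted p = 0.0341, exact permutation p = 0.0857) and was lost without WT NCD mouse 2, 3 or 5 or Klrk1-/- NCD mouse 1, 3 or 4 (adjusted p = 0.0518 to 0.1004), in 1 model of all 4 groups (0.0799) and with a replicate block (0.0664). Baat did not pass on NCD (-0.34, adjusted p = 0.0685) and was called lower in 1 model of all 4 groups, with DESeq2, equal totals or a replicate block and without WT NCD mouse 5 (adjusted p = 0.0248 to 0.0448). The remaining calls on NCD, all lower in Klrk1-/- mice, were Akr1d1 (-0.49 on the log2 scale), Nr5a2 (-0.42) and Amacr (-0.28). The calls of Akr1d1 and Nr5a2 were each lost without WT NCD mouse 1, 2 or 3 or Klrk1-/- NCD mouse 1, 2 or 3 (adjusted p up to 0.118 and 0.0885), and that of Amacr without any of these or Klrk1-/- NCD mouse 4 (up to 0.123). The call of Amacr was also lost with edgeR (0.0501) and with a replicate block (0.0537).

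On SSD the genotypes differed in 2 of 32 members, both lower in Klrk1-/- mice (1.68% of the 13116 genes tested were lower). None was higher by limma or edgeR, against 1.22% and 1.07% of all genes, whereas DESeq2 on the recovered reads called Hsd3b7, Abcb11 and Nr5a2 higher (4.08% of all genes were), 1 model of all 4 groups called Hsd3b7 and Abcb11 higher (3.21% of all genes were), and 6 members were higher at an unadjusted limma p under 0.05 (11% of all genes). Of 8 periportal and 8 pericentral hepatocyte markers 2 and 1 were higher in Klrk1-/- mice, and of 8 macrophage markers 2 were lower, with all 8 below 0 and a median of -0.74 on the log2 scale. Without WT SSD mouse 1 these counts were 4, 2 and 3 (2.24% of all genes were higher and 3.26% lower), and the macrophage median was -0.64. The part of these in the results was not tested. The members' median log2 fold change was 0.16, against -0.001 over all genes. The 2 were Slc10a2 and Cyp7a1, which were also lower on NCD. Without WT SSD mouse 1 both calls held (log2 fold change -1.36 and -1.35), and Slco1a4 was called higher at 0.44 (adjusted p = 0.0357).

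Slc10a2 had 771, 512, 679.5, 490.4 and 611 normalized counts in WT mice and 212, 214 and 237 in Klrk1-/- mice on SSD. All Klrk1-/- values were close together and far below every WT value. The mean was 2.77-fold lower (log2 fold change -1.45 ± 0.15, SE, limma adjusted p = 0.00128, exact permutation p = 0.0179). Cholangiocyte marker sums on SSD ranged from 1274 to 3402 in WT mice (to 2579 without mouse 1) and from 1525 to 1666 in Klrk1-/- mice, and the list's median was -0.35 on the log2 scale. None of the 6 tested was called by limma, edgeR or DESeq2, and 1 had an unadjusted limma p under 0.05.

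Cyp7a1 on SSD had 285, 489 and 395 normalized counts in Klrk1-/- mice against 1251, 665, 1118, 1073 and 1106 in WT mice. The genotypes did not overlap, and the mean was 2.68-fold lower in Klrk1-/- mice (log2 fold change -1.42 ± 0.21, SE, limma adjusted p = 0.0114, exact permutation p = 0.0179). With 3 Klrk1-/- mice, the call was lost without mouse 1 (0.0703) or mouse 3 (0.0569). The difference was -1.49 on NCD and -1.42 on SSD, and the interaction was 0.07 ± 0.48 (SE, adjusted p = 0.955).

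**Figure D5:**
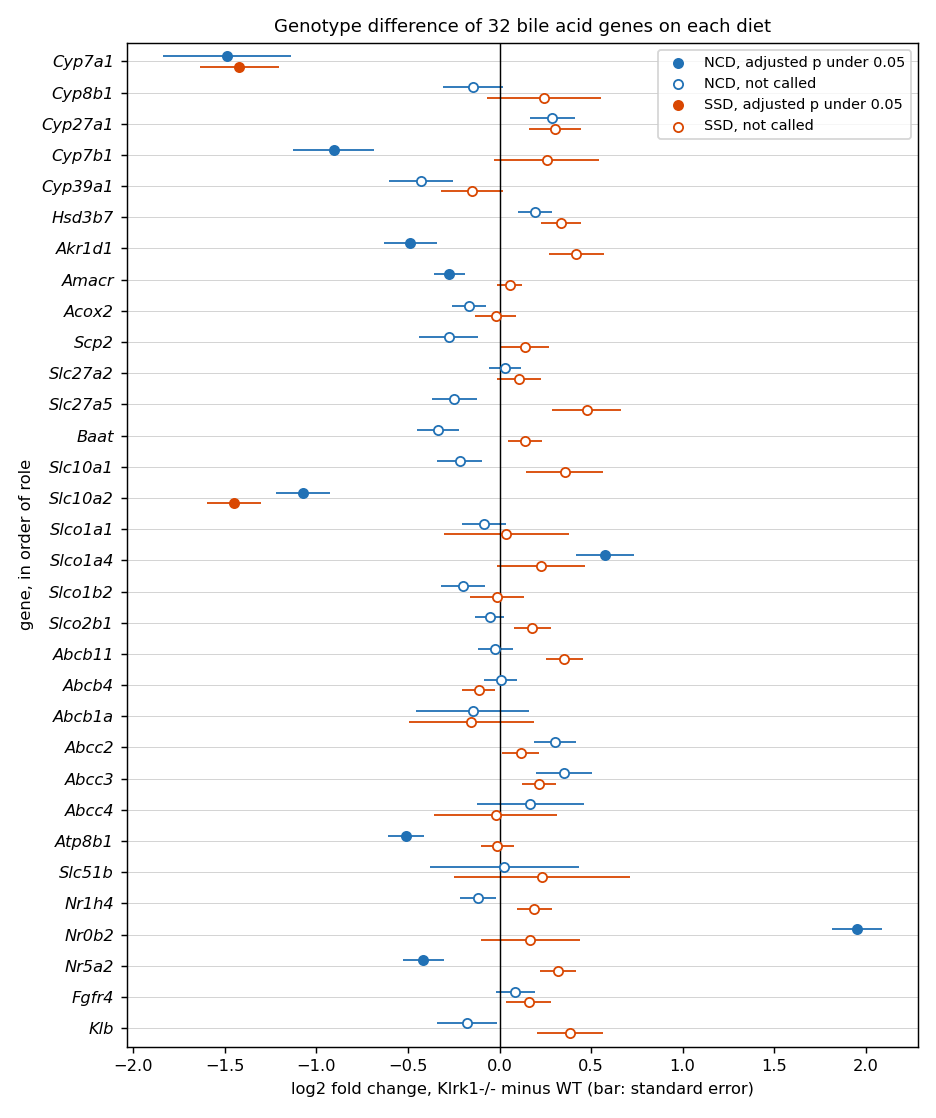
Log2 fold change of Klrk1-/- against WT mice (horizontal axis, bar: standard error) for the 32 members tested, on NCD (blue) and SSD (orange), with filled points at a limma adjusted p under 0.05. Cyp7a1 and Slc10a2 are filled and below 0 on both diets, and Nr0b2 stands at 1.95 on NCD.

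Clock genes differed between the genotypes as well, and Cyp7a1 is known to follow the daily cycle. Of 14 clock genes tested, 2 were higher and 3 lower in Klrk1-/- mice on NCD (6.41% and 6.66% of all genes), and 2 were lower on SSD (1.68% of all genes). On NCD Per3 and Per2 had log2 fold changes of -1.30 and -1.19, and Nr1d1 and Npas2 of 1.22 and 0.64 (limma adjusted p = 0.0124, 0.00117, 0.0113 and 0.0104). Between the diets, 3 were higher and 3 lower in WT mice (17.3% and 17.6% of all genes) and 1 was lower in Klrk1-/- mice (16% of all genes), which were shares near or below those of all genes. On SSD Per1 and Per2 differed between the genotypes by -1.24 and -0.80 (adjusted p = 0.0148 and 0.0476). The hour of collection is not given in the sources used here, and its part in the genotype differences was not tested.

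Other genes of the pathway were taken from fixed lists. Of 10 further synthesis genes 9 were tested. On SSD 2 were higher and 1 lower in WT mice (17.3% and 17.6% of all genes), and 5 were higher and 1 lower in Klrk1-/- mice (13.4% and 16% of all genes). The extremes in both genotypes were Cyp46a1, the cholesterol 24-hydroxylase, at 1.40 and 1.45 on the log2 scale, and Cyp2c70, which makes muricholic acids, at -1.81 and -1.09 (limma adjusted p = 0.0146, 9.52e-04, 7.45e-05 and 2.90e-04). The medians over the list were 0.0045 in WT mice and 0.52 in Klrk1-/- mice.

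Of 12 further transport genes 9 were tested, of which 3 were higher and 1 lower on SSD in WT mice (17.3% and 17.6% of all genes) and 2 higher and 1 lower in Klrk1-/- mice (13.4% and 16%), with list medians of 0.06 and 0.12. Abcg5 and Abcg8, the paired sterol transporters of the canaliculus, rose by 2.53 and 2.38 in WT mice and by 2.01 and 2.13 in Klrk1-/- mice (limma adjusted p = 1.19e-07, 6.71e-08, 7.55e-07 and 2.89e-07). On NCD 3 of the 9 were higher and 2 lower in Klrk1-/- mice (6.41% and 6.66% of all genes). Both Abcg5 and Abcg8 were higher in Klrk1-/- than in WT mice, by 0.77 and 0.59 (adjusted p = 0.00689 and 0.0145).

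Of 14 further regulators 12 were tested, of which 3 were higher and 3 lower on SSD in WT mice (17.3% and 17.6% of all genes) and 3 higher and 1 lower in Klrk1-/- mice (13.4% and 16%), with list medians of 0.05 and 0.13. Ppara and Nr1i2, which encode the receptors PPAR-alpha and PXR, rose by 0.71 and 0.43 in WT mice, and Prox1 and Nr1h3, which encode a corepressor of bile acid synthesis and the oxysterol receptor LXR-alpha, fell by 0.71 and 0.44 on the log2 scale (limma adjusted p = 0.00665, 0.00413, 0.0128 and 0.0022). On NCD 3 were higher and 1 was lower in Klrk1-/- mice (6.41% and 6.66% of all genes), with Ppargc1a, the coactivator PGC-1-alpha, at 1.28 (adjusted p = 0.00121) and Prox1 at -0.70 (0.0435). On SSD limma and edgeR called none of the synthesis, transport and regulator lists between the genotypes (2.9% and 2.37% of all genes). DESeq2 called 2 regulators higher (4.08% of all genes), and 0, 6 and 3 genes of the lists had an unadjusted limma p under 0.05 (22.9% of all genes).

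Genes that differ between the sexes in liver changed on SSD, and members such as Cyp7b1 and Slco1a1 are known to be expressed more highly in male liver. Slco1a1 did not pass in WT mice (limma adjusted p = 0.0664). Its call in Klrk1-/- mice was lost in 1 model of all 4 groups (0.116). Of 10 male-biased genes, 8 were lower in each genotype (17.6% of all genes in WT and 16% in Klrk1-/- mice), with medians of -1.94 and -1.85 on the log2 scale. Between the genotypes limma called none of the 10 on NCD or SSD (13.1% and 2.9% of all genes), with 3 and 2 at an unadjusted p under 0.05 (31.0% and 22.9%). DESeq2 called 2 lower on SSD (5.23% of all genes). Of 12 female-biased genes, 8 were below the count minimum in WT mice and 7 in Klrk1-/- mice, so the list was not counted. Cyp2a4 and Cyp2b9 reached the minimum in WT mice only through SSD, with mean normalized counts of 2.84 and 0 on NCD and 299.6 and 61.1 on SSD, and in Klrk1-/- mice they were at 25.1 and 5.59 on NCD and 562 and 103 on SSD. Cyp17a1 was lower on SSD, at -1.77 in WT and -1.59 in Klrk1-/- mice (limma adjusted p = 8.43e-04 and 0.0022). Among 8 growth hormone axis genes, 2 were higher and 3 lower in WT mice (17.3% and 17.6% of all genes) and 3 lower in Klrk1-/- mice (16% of all genes), with medians of -0.76 and -0.22, and Igf1 fell by 0.84 and 0.81 (limma adjusted p = 4.34e-04 and 3.93e-04). The part of this shift in the results of Cyp7b1 and Slco1a1 was not tested.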

How the data were processed

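RNA of 16 mouse livers was sequenced as single 100-base reads, 1 library per mouse, and samples were grouped by the genotype and diet in the GEO labels. Per the labels and the study's methods, the authors used FastQC, STAR, FeatureCounts and DESeq2 with GRCm39 and GENCODE M26. The deposited values are normalized counts (unit: signal, gene counts divided by a size factor per library), and the authors also deposited each gene's length. How the size factors were obtained and whether counting used strand are not given in the sources used here. The labels and the study's methods name different library kits, one for mRNA and one for total RNA. Whole reads were recovered from the steps between low values (100% of values whole within 0.05 of a read). In WT NCD mouse 2 a step is worth about 1 normalized count, so that whole reads cannot be told from rounded values there, and edgeR and DESeq2 rest on this assumption for that mouse.

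The members and gene lists were chosen with earlier results of these data known. Normalized counts were transformed as log2(value + 1), genes were kept if their mean in the mice fitted was 10 or more, and limma 3.58.1 in R 4.3.3 tested each comparison with Benjamini-Hochberg adjustment over all genes tested. A call is an adjusted p under 0.05 with no fold limit. A fold change on this scale understates changes of genes with low counts. A fold of means is a ratio of mean normalized counts. Exact two-sided permutation tests used all splits of the mice. The smallest p possible was 0.00794 for diet in WT mice, 0.0286 for diet in Klrk1-/- mice and for genotype on NCD, and 0.0179 for genotype on SSD. Values in every mouse are given for the called members with the largest log2 fold changes, at most 6 a comparison, and for 8 chosen members in WT mice. Values per mouse are listed in the order of the mouse numbers, which are 1, 2, 3 and 5 in WT NCD mice. Of each context list the 2 largest and 2 smallest log2 fold changes among calls may be named. Alternatives were edgeR 4.0.16 and DESeq2 1.42.0 on the recovered reads, other pseudocounts and filters, a fold limit, equal totals, quantile normalization, 1 model of all groups, a replicate block and leaving out each mouse. The procedure was tested on simulated data. The depth was 19892025 to 28936707 reads on genes per mouse.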

Additional observations from a re-analysis of the deposited data

Results flagged for a closer look

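Within groups of 4 or 5 mice, 7 of 96 sets of values held 1 mouse far from the rest by Dixon's criterion, where chance gives about 5 in 100. Of the 7, 5 were in WT SSD mice, 2 in Klrk1-/- NCD mice and 0 in WT NCD mice, and 4 were the same animal, WT SSD mouse 1. In that mouse Cyp8b1 was at 2560.1 normalized counts against 6950.3 in the nearest mouse, Slco1a4 at 2109.8 against 1107, Abcc4 at 285 against 122 and Slc51b at 57.8 against 22.8. In WT SSD mouse 3 Atp8b1 was at 763 against 659.8. In Klrk1-/- NCD mouse 3 Cyp27a1 was at 19342 against 14982, and in mouse 1 of that group Abcb4 was at 4292 against 3759.

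The diet effect differed between the genotypes for Nr0b2, with an interaction of -1.78 on the log2 scale, and for Nr5a2, with an interaction of 0.73. Nr0b2 was higher in every WT SSD mouse than in any WT NCD mouse, whereas in Klrk1-/- mice its diet effect was -0.60 (limma adjusted p = 0.0664) and passed without SSD mouse 1 (-0.81, adjusted p = 0.0328).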

How the results depend on the processing

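With a fold limit of 1.5 the number of members called was 14 for diet in WT mice, 10 for diet in Klrk1-/- mice and 4 for genotype on NCD (19.3%, 13.1% and 5.79% of all genes), and with a limit of 2 it was 9, 5 and 3, and 1 for the interaction (9.01%, 5.46%, 1.7% and 0.536%). With equal totals 15 members were called in WT mice and 1 in the interaction (53.6% and 0.825%). DESeq2 on the recovered reads called 5 members for genotype on SSD and 5 in the interaction (9.31% and 3.52% of all genes), and 1 model of all 4 groups called 11 for diet in Klrk1-/- mice and 4 for genotype on SSD (24% and 7.26%). Leaving out 1 mouse at a time gave 19 to 24 calls for diet in WT mice, 14 to 17 for diet in Klrk1-/- mice, 1 to 3 for genotype on SSD, 5 to 11 for genotype on NCD and 1 to 3 in the interaction, while the shares of all genes were 27.5% to 34.2%, 18.6% to 28.4%, 0.342% to 5.49%, 5.59% to 17.1% and 0.283% to 1.43%. The count on NCD was 5 without WT NCD mouse 1, 2 or 3 or Klrk1-/- NCD mouse 1 or 3, and that on SSD was 1 without Klrk1-/- SSD mouse 1 or 3. The change of Abcb11 in WT mice turned to 0.049 with equal totals and 0.107 with quantile normalization, and the cause was not tested.

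Mouse numbers gave no clear pairing of the samples: deviations from the group means correlated between -0.13 and 0.25, and 4 of 13 mice correlated best with their own number. These were 2 of 3 for diet in Klrk1-/- mice, 2 of 3 for genotype on SSD and 0 in the other comparisons. With so few mice a group, these values cannot exclude a pairing. A replicate block, which drops mice without a shared number, gave 18 calls for diet in WT mice, 16 for diet in Klrk1-/- mice, 2 for genotype on SSD, 12 for genotype on NCD and 1 in the interaction (22.7%, 24.9%, 5.41%, 18.4% and 0.391% of all genes), and with it the fall of Nr0b2 in Klrk1-/- mice passed (adjusted p = 0.0205). Other pseudocounts changed no count of calls. Slc51a and Gpbar1 had too few reads to be tested, and the low counts of Slc51b, Abcc4 and Abcb1a limit their precision.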
